A study of Mus musculus with 6 samples.

Results

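Growth hormone and prolactin reach pancreatic islets through their receptors and the kinase JAK2, and 10 genes of that route were followed here. They were chosen by symbol: the receptor genes Prlr and Ghr, the kinase gene Jak2, the transcription factor genes Stat5a and Stat5b, the feedback genes Cish, Socs1, Socs2 and Socs3, and Tnfrsf11b. Each symbol matched 1 gene ID of the 56980 in the count table, and all 10 passed the filter on low counts that left 18558 genes to test. The knockout group held 3 libraries of whole islets from mice with the genotype SSBP3F/F; MIP-CreER, in which Ssbp3 is floxed and a tamoxifen-inducible Cre recombinase is driven by the mouse insulin promoter. The control group held 3 libraries from littermates with the genotype SSBP3F/F, so both groups carry the floxed alleles. All mice were 14 weeks old. SSBP3 is a nuclear protein that partners LDB1 in LIM-homeodomain transcription complexes, and the series asks what its loss does to islets.

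When growth hormone or prolactin binds, JAK2 phosphorylates the receptor and STAT5, and STAT5 dimers enter the nucleus and bind DNA at a palindrome of the form TTCNNNGAA. CISH and SOCS2 are made in response and dampen the receptor in turn. In rodent beta cells this route is known from pregnancy, when placental lactogen and prolactin raise serotonin synthesis and beta-cell number. MIP-CreER lines in common use carry a minigene for human growth hormone beside the Cre gene, and human growth hormone also binds the mouse prolactin receptor. The labels do not say whether the minigene was present in these mice or whether tamoxifen was given, and no human transcript was analysed here. Mice with the transgene but without floxed Ssbp3 were not analysed here either, so the transgene, any tamoxifen given and the loss of SSBP3 cannot be told apart in any result that follows.

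The promoters of Cish and Socs3 are shown because Cish transcript was higher in knockout islets and Socs3 transcript was not. The windows run from 250 bases before the annotated start to 50 after it, on the gene's own strand, and come from RefSeq on build GRCm38.p6. The counts were made on another build. Capitals mark each TTCNNNGAA, a motif that reads the same on both strands. The Cish window is chr9:107296409-107296708 (plus strand) and the Socs3 window is chr11:117969317-117969616 (minus strand).
Cish promoter: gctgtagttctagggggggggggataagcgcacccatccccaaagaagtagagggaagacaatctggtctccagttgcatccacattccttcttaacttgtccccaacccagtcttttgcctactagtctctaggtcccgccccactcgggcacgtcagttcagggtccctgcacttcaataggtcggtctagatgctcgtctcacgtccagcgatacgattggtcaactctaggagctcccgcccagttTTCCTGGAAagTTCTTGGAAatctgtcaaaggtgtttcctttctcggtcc
Socs3 promoter: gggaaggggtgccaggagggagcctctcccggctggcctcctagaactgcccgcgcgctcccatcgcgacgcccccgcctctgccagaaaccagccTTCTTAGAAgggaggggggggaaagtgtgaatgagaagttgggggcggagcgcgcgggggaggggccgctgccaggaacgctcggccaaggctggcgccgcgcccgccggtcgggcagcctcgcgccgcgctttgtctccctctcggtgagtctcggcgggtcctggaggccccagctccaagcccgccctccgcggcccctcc
The Cish window holds 2 copies, TTCCTGGAA at bases 251 to 259 and TTCTTGGAA at bases 262 to 270, counted from its 5′ end. The Socs3 window holds 1 copy, TTCTTAGAA at bases 97 to 105. Among 32851 promoter windows of the same length, 8.30% held the motif at least once and 0.457% held it at least 2 times. Counted by gene, 9.55% of 27025 genes held it in at least 1 window. Of the 8 genes of the group with a RefSeq window, Prlr was the other one with a copy, TTCTAGGAA in 1 of its 3 windows, while Ghr, Jak2, Stat5a, Stat5b and Socs1 had none in theirs. Socs2 and Tnfrsf11b were not in the table. A match of letters is a description and not a binding site.

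Library totals ran from 14907641 to 93841878 counts in the knockout group and from 17587055 to 225428920 in the control group, with 1 shallow library in each, knockout 1 and control 1. A count of 3 corresponded to 0.194 CPM (read counts scaled to TMM-adjusted library sizes) in knockout 1, the shallowest, and 0.0135 CPM in control 3, the deepest library. Ssbp3 itself measured 52.3, 58.1 and 57.1 CPM in knockout 1, 2 and 3, against 65.8, 81.3 and 74.2 CPM in control 1, 2 and 3. It was not called lower (log2 fold change -0.40, SE 0.117, edgeR adjusted p = 0.0581), though it was in 4 of 15 alternative analyses with other scaling, filters, tools or offsets or with libraries left out (adjusted p from 0.0207 to 0.283). The 7 islet markers, mostly hormone transcripts, summed to 177700 to 199200 CPM in knockout and 229100 to 276700 CPM in control islets, so the labelled tissue was plainly present in each. Within the list 1 marker was called higher by edgeR, the chromogranin A gene Chga (log2 fold change 0.79, adjusted p = 0.0352), and 1 lower, the somatostatin gene Sst (-0.85, adjusted p = 0.0223). Of other tools, DESeq2 called 5 of the 7 (Chga, Ins1, Ins2, Ppy and Sst) and limma-voom 3 (Chga, Ins1 and Sst). The insulin genes Ins1 (-0.61, edgeR adjusted p = 0.1085) and Ins2 (-0.52, edgeR adjusted p = 0.2345) were not called by edgeR. Both lay lower in every knockout than in every control library, as did Iapp, Sst and 14.1% of all genes tested. Transcripts of acinar cells summed to 24580 to 84260 CPM in knockout and 31180 to 62920 CPM in control islets. In bulk islets, fewer cells of a type and less RNA per cell cannot be told apart. Fits named edgeR are its quasi-likelihood test over all 18558 genes with Benjamini-Hochberg adjustment, and a gene is called at an adjusted p under 0.05.

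Of the 10 genes, 4 rose in knockout islets (Stat5b, Cish, Socs2 and Tnfrsf11b) and none fell by edgeR. Over all genes tested, 7.07% were called, 3.72% higher and 3.35% lower, with 691 and 621 genes, or 613 and 829 with upper-quartile scaling. In 5 of the 10, the 4 named and Jak2, every knockout library lay above every control library, as it did in 14.0% of all genes. The reverse held for 14.1% of all genes and for none of the 10, so that 28.0% of all genes did not overlap. Before adjustment 6 of the 10, the same 5 and Prlr, had a p under 0.05, against 21.6% of all genes. The median log2 fold change was 0.40 over the 10 genes and -0.0016 over all genes. Because the 10 genes were chosen with earlier results of these data known, these comparisons with all genes are descriptive only. The feedback genes split: Cish and Socs2 rose 3.91-fold and 3.04-fold, whereas Socs1 and Socs3 did not pass the test.

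**Figure D1:**
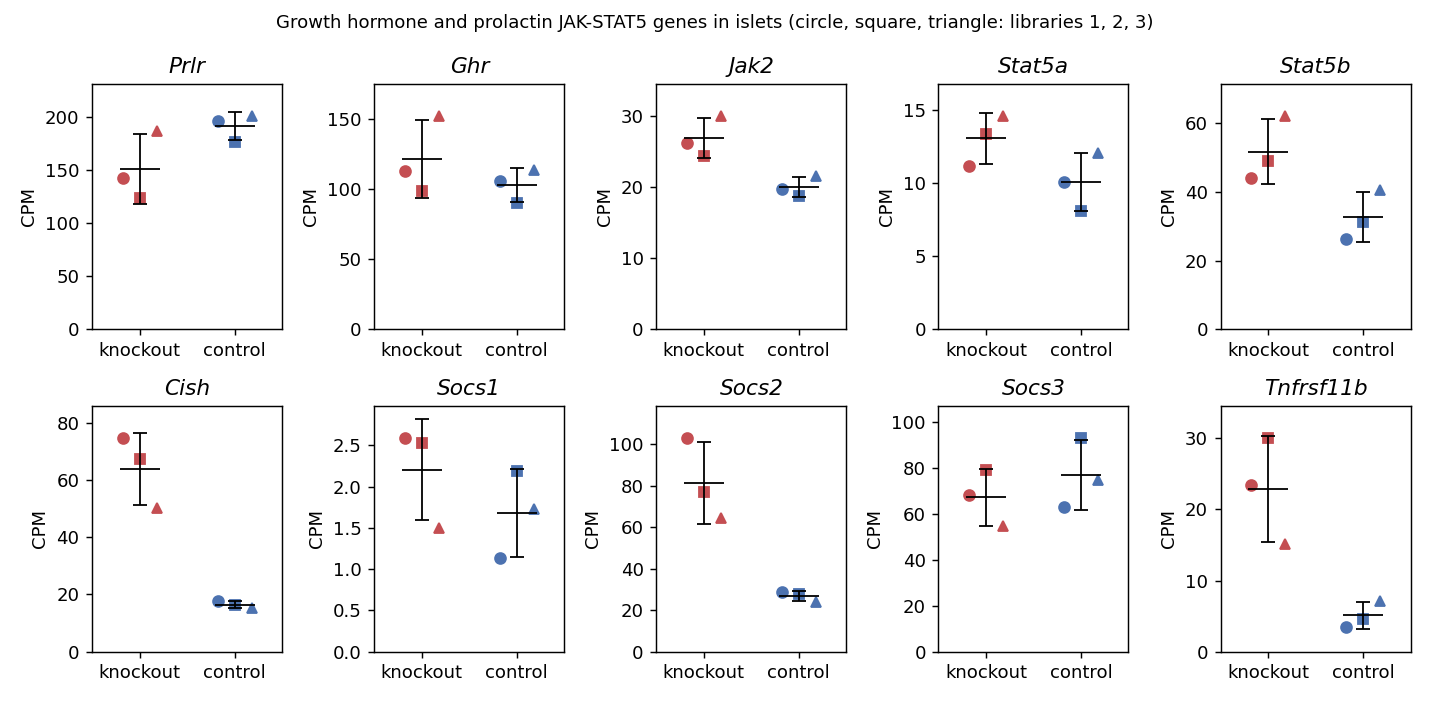
CPM of each gene in each library (circle, square and triangle for libraries 1, 2 and 3), with the group mean and SD (n = 3). Knockout libraries of Cish lie between 50.1 and 74.7 CPM and control libraries between 15.3 and 17.6 CPM, whereas the groups overlap for Socs3.

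The receptors were abundant in both groups. Prlr (ENSMUSG00000005268), the prolactin receptor that also binds placental lactogen, measured 142.8, 123.7 and 187.5 CPM in knockout 1, 2 and 3, against 197.0, 177.0 and 201.6 CPM in control 1, 2 and 3. Knockout 1 and 2 lay below every control library and knockout 3 lay inside their range. Its log2 fold change of -0.34 (SE 0.147, 95% interval -0.66 to -0.02 before adjustment) was not called (edgeR adjusted p = 0.198). Without knockout 3, Prlr was called lower (log2 fold change -0.53, edgeR adjusted p = 0.0231). It was also called lower with offsets for transcript length and GC content (-0.48, adjusted p = 0.0428), and its adjusted p ran from 0.0231 to 0.540 over the 15 alternatives.

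Ghr (ENSMUSG00000055737), the growth hormone receptor, measured 112.7, 98.5 and 152.3 CPM in knockout 1, 2 and 3, against 105.5, 89.9 and 113.9 CPM in control 1, 2 and 3. The groups overlapped, with a log2 fold change of 0.23 (SE 0.157, 95% interval -0.11 to 0.58, edgeR adjusted p = 0.433). The balance of the receptors was also compared within each library. The log2 ratio of Ghr to Prlr was -0.34, -0.33 and -0.30 in knockout 1, 2 and 3, against -0.90, -0.98 and -0.82 in control 1, 2 and 3. The knockout mean thus lay 0.58 above the control mean, with SDs of 0.0212 in knockout and 0.0769 in control libraries. An exact permutation test over the 6 libraries gave a two-sided p = 0.10, the smallest that 3 against 3 can give (p = 0.12 adjusted over 6 ratios). Once length and GC content were offset, the log2 fold changes were 0.06 for Ghr and -0.48 for Prlr.

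Jak2 (ENSMUSG00000024789), the kinase bound to both receptors, measured 26.3, 24.4 and 30.1 CPM in knockout 1, 2 and 3, against 19.7, 18.7 and 21.5 CPM in control 1, 2 and 3. The groups did not overlap, but the log2 fold change of 0.43 (SE 0.140, 95% interval 0.13 to 0.73 before adjustment) was not called (edgeR adjusted p = 0.0845), nor in any of the 15 alternatives (0.0599 to 0.297).

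Stat5b (ENSMUSG00000020919) was the more abundant of the paired STAT5 genes. It measured 44.0, 49.0 and 62.3 CPM in knockout 1, 2 and 3, against 26.3, 31.3 and 40.7 CPM in control 1, 2 and 3. The lowest knockout library stood just above the highest control library. Stat5b rose 1.58-fold (log2 fold change 0.66, SE 0.173, edgeR adjusted p = 0.0389). Leaving out any single library but control 3 ended the call, with adjusted p = 0.157 without control 1, 0.162 without control 2, 0.0577 without knockout 1, 0.0599 without knockout 2 and 0.101 without knockout 3. Offsets for length and GC content (0.0739) or leaving out both shallow libraries (0.183) also ended it, and the range over 15 alternatives was 0.000190 to 0.183.

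Stat5a (ENSMUSG00000004043) measured 11.1, 13.4 and 14.6 CPM in knockout 1, 2 and 3, against 10.1, 8.07 and 12.0 CPM in control 1, 2 and 3. The groups overlapped, and the log2 fold change of 0.38 (SE 0.194, 95% interval -0.04 to 0.80) was not called (edgeR adjusted p = 0.283). STAT5A and STAT5B are close paralogs from neighbouring genes on chromosome 11, so reads may be shared between them. The log2 ratio of Stat5a to Stat5b was -1.98, -1.87 and -2.09 in knockout 1, 2 and 3, against -1.38, -1.95 and -1.76 in control 1, 2 and 3. The groups overlapped (exact permutation test, two-sided p = 0.20), so a difference between the responses of these genes was not shown.

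Cish (ENSMUSG00000032578) encodes a cytokine-inducible SH2 protein that blocks STAT5 docking at activated receptors. It measured 74.7, 67.2 and 50.1 CPM in knockout 1, 2 and 3, against 17.6, 16.3 and 15.3 CPM in control 1, 2 and 3. The lowest knockout library was well above the highest control library, and the control libraries were close together. Cish rose 3.91-fold (log2 fold change 1.97, SE 0.156, edgeR adjusted p = 2.34e-05) and had the 12th smallest p of all genes. The call held in all 15 alternatives, with log2 fold changes of 1.80 to 2.12. Exons of Cish overlap the antisense pseudogene Gm17040, and the sources used here do not give the strand setting of the counts. Gm17040 had 13, 59 and 42 counts in knockout 1, 2 and 3, against 2, 2 and 11 in control 1, 2 and 3, beside 1154 or more counts of Cish in each knockout library and 312 or more in each control library.

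Socs2 (ENSMUSG00000020027), whose product limits growth hormone signalling and whose loss gives giant mice, measured 102.9, 76.8 and 64.4 CPM in knockout 1, 2 and 3. In control 1, 2 and 3 it measured 28.8, 27.6 and 24.0 CPM. The groups were far apart, with knockout libraries more spread than control libraries (coefficient of variation 24.2% in knockout and 9.35% in control). Socs2 rose 3.04-fold (log2 fold change 1.60, SE 0.164, edgeR adjusted p = 0.000164), and the call held in all 15 alternatives, with log2 fold changes of 1.41 to 1.75.

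Socs3 (ENSMUSG00000053113), the inhibitor best known from STAT3 and interleukin-6 family signalling, measured 68.2, 79.3 and 54.6 CPM in knockout 1, 2 and 3. In control 1, 2 and 3 it measured 63.1, 93.2 and 74.7 CPM. The groups overlapped, with a log2 fold change of -0.20 (SE 0.163, 95% interval -0.55 to 0.16, edgeR adjusted p = 0.545). A rise of the size seen for Cish or Socs2 lies outside that interval. Socs1 (ENSMUSG00000038037), the inhibitor best known from interferon signalling, was near the bottom of the range at 2.59, 2.52 and 1.50 CPM in knockout 1, 2 and 3, against 1.13, 2.19 and 1.73 CPM in control 1, 2 and 3. The knockout libraries stood on either side of control 2. With 40, 202 and 158 counts in knockout 1, 2 and 3, and 20, 176 and 384 in control 1, 2 and 3, its interval was wide (log2 fold change 0.35, SE 0.383, 95% interval -0.48 to 1.18, edgeR adjusted p = 0.667).

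The split between the feedback genes can be restated as ratios within each library, where library scaling plays no part. These ratios reuse the counts fitted above and are not separate evidence. The log2 ratio of Cish to Socs3 was 0.13, -0.24 and -0.13 in knockout 1, 2 and 3, against -1.84, -2.52 and -2.29 in control 1, 2 and 3. Cish thus stood level with Socs3 in counts in knockout islets and far below it in control islets. The ratio of Socs2 to Socs3 was higher in knockout libraries by 1.77 on the log2 scale, that of Cish to Socs1 by 1.56 and that of Socs2 to Socs1 by 1.19. The groups overlapped in none of these 4 ratios, and each gave an exact permutation p = 0.10 (two-sided), the smallest possible here.

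**Figure D2:**
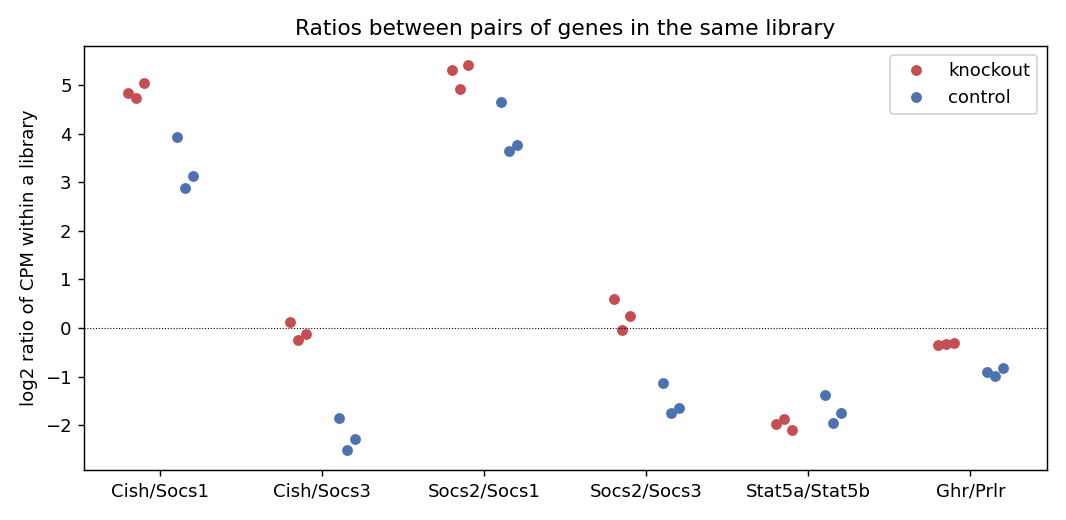
Log2 ratio of CPM between 2 genes of the same library, with each point a library, knockout on the left and control on the right of each pair. Ratios of Cish and Socs2 to Socs1 or Socs3, and of Ghr to Prlr, do not overlap between the groups, while Stat5a to Stat5b does.

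Tnfrsf11b (ENSMUSG00000063727) encodes osteoprotegerin, a secreted decoy for RANK ligand that has been described as a prolactin-responsive gene of mouse beta cells. It measured 23.5, 30.0 and 15.2 CPM in knockout 1, 2 and 3, against 3.50, 4.63 and 7.14 CPM in control 1, 2 and 3. Every knockout library stood above every control library, with a wide spread in both groups. Tnfrsf11b rose 4.38-fold (log2 fold change 2.13, 95% interval 1.47 to 2.79 before adjustment, edgeR adjusted p = 0.00261), the largest fitted change of the 10 genes and also the most variable within both groups (coefficient of variation 32.5% in knockout and 36.6% in control). The call was lost without both shallow libraries (log2 fold change 1.94, edgeR adjusted p = 0.0820) and held in the other 14 alternatives. Osteoprotegerin is also made by stromal and endothelial cells. The 7 stromal markers summed to 78.2 to 122.1 CPM in knockout and 83.4 to 173.3 CPM in control islets, with overlap. The 7 endothelial markers summed to 266.2 to 344.7 CPM in knockout and 214.2 to 263.9 CPM in control islets, without overlap, and 1 of them, Cdh5, was called higher. No marker of either list was at 0 in any library. The part of these cells in the Tnfrsf11b result was not tested.

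**Figure D3:**
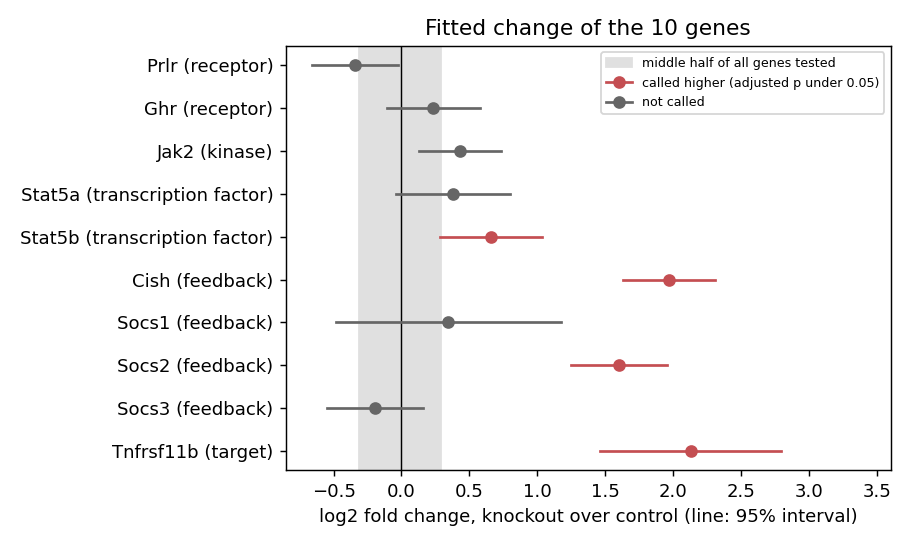
Log2 fold change of knockout over control for the 10 genes in order of role, with 95% intervals before adjustment. The called genes Stat5b, Cish, Socs2 and Tnfrsf11b (red) lie right of the grey band that holds the middle part of all genes, from -0.31 to 0.29.

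Within the groups, the receptor, kinase and STAT5 genes were ordered differently across libraries from Cish and Socs2. All 5 receptor, kinase and STAT5 genes were highest in knockout 3 among knockout libraries and highest in control 3 among control libraries. Cish and Socs2 were highest in knockout 1 and control 1 and lowest in knockout 3 and control 3. The other feedback genes did not share that order in both groups. Socs3 was highest in knockout 2 and control 2, and Socs1 in knockout 1 and control 2. How many of all genes had either order was not counted. Library 3 was the deepest of each group, with 93841878 counts for knockout 3 and 225428920 for control 3, and library 1 the shallowest. Whether depth plays a part in this order was not tested.

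Per kilobase of annotated exon, Socs3 led both groups with 23.3 ± 4.28 CPM per kilobase in knockout and 26.6 ± 5.25 in control islets (SD, n = 3 each). Socs1 was last with 0.757 ± 0.210 in knockout and 0.579 ± 0.183 in control islets, and Stat5a stood next above it with 1.83 ± 0.246 in knockout and 1.41 ± 0.279 in control islets. In control islets the order between them was Prlr, Ghr, Stat5b, Jak2, Socs2, Cish and Tnfrsf11b, from 12.5 to 1.81 CPM per kilobase. There Prlr and Ghr overlapped, as did the neighbours from Socs2 through to Stat5a. In knockout islets Ghr, Cish, Prlr, Stat5b, Socs2 and Tnfrsf11b lay between 13.4 and 8.13 CPM per kilobase, and each of them overlapped the next, so their order was not resolved. By its mean, Cish stood at place 3 in knockout islets, against place 7 in control islets. Its range overlapped those of its neighbours in both groups, so neither place was resolved. Lengths are unions of all annotated exons, which for Prlr (15339 bases) exceed any single transcript and lower its value. The same can hold for the other genes, with unions of 6419 bases for Cish, 9531 for Socs2 and 2891 for Socs3. Before division by length, Cish averaged 64.0 CPM and Socs3 67.4 CPM in knockout islets. The order of the genes per kilobase thus depends on these lengths.

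**Figure D4:**
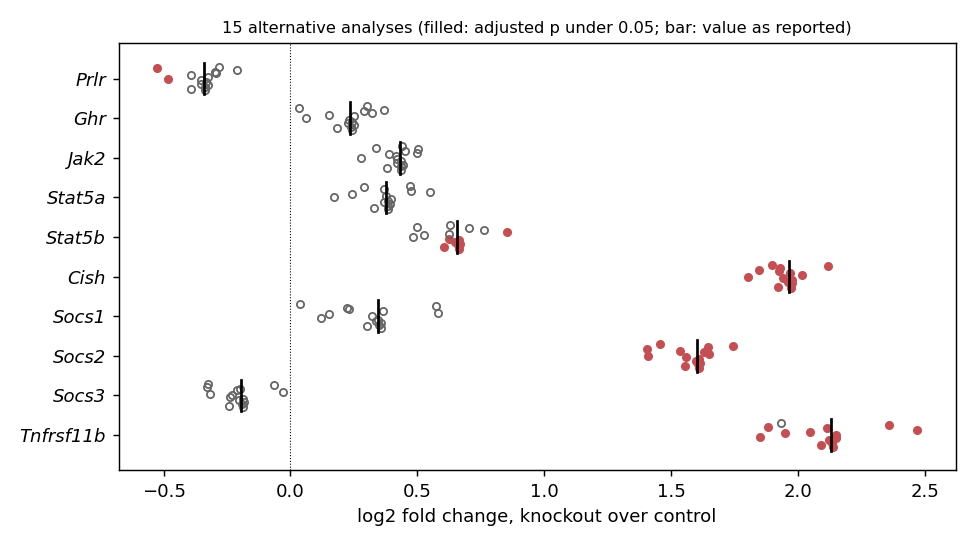
Log2 fold change of each gene under 15 alternative analyses (circles, filled where the adjusted p was under 0.05) and as reported (bar). Cish and Socs2 are filled throughout, Stat5b in 8 of 15 and Prlr in 2 of 15, on the lower side.

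The mouse ligand genes examined for these receptors were barely detected in islets. No human transcript was analysed, so a human growth hormone transcript is not covered here. Gh, Prl, Prl3b1 and Prl7d1, the mouse genes of growth hormone, prolactin and prolactin relatives, had 0 counts in all 6 libraries. If each count is a separate fragment, a count of 0 allows up to 0.194 CPM in the shallowest and 0.0135 CPM in the deepest library. Even numbers made up 73.2% of the nonzero counts in knockout 1 and 62.3% in control 3. If fragments were counted more than once, these limits are too low, which was not tested. Prl3d1 had 0, 8 and 2 counts in knockout 1, 2 and 3 and none in control libraries, and Prl2c2 had at most 6 counts in a knockout and 18 in a control library.

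Of 7 further JAK and STAT genes, 0 passed by edgeR, with a median log2 fold change of -0.13, while 3 had an unadjusted p under 0.05 and DESeq2 and limma-voom called 0. The 3 were Tyk2 (-0.39, adjusted p = 0.119), Stat3 (0.32, adjusted p = 0.157) and Jak1 (0.30, adjusted p = 0.192). Of 14 other inhibitors, which include Socs4 to Socs7, tyrosine phosphatases and PIAS proteins, 0 passed by edgeR (median 0.13) and limma-voom, 2 had an unadjusted p under 0.05, and DESeq2 called 1, Pias1. The 2 were Pias1, a SUMO ligase that restrains STAT proteins, at 0.43 (edgeR adjusted p = 0.0705) and Cbl, a ubiquitin ligase of activated receptors, at 0.54 (adjusted p = 0.0995). Of 11 receptor adaptors and kinases, 0 passed by edgeR (median 0.24) and 3 had an unadjusted p under 0.05. DESeq2 called 2 of them, the kinase genes Src (0.62, edgeR adjusted p = 0.0693) and Lyn (0.60, edgeR adjusted p = 0.0940), and limma-voom called Lyn.

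Among 23 other cytokine receptor genes tested, 2 rose and 1 fell by edgeR, with a median log2 fold change of 0.17. DESeq2 and limma-voom each called 4, the same 3 genes and the interleukin-4 receptor gene Il4ra (0.54, edgeR adjusted p = 0.0658). Csf2rb, the shared beta chain of the receptors for GM-CSF, interleukin-3 and interleukin-5, measured 12.6, 12.7 and 4.25 CPM in knockout 1, 2 and 3, against 1.92, 0.958 and 2.36 CPM in control 1, 2 and 3. It rose 5.58-fold (log2 fold change 2.48, edgeR adjusted p = 0.0182), a call lost without control 1, knockout 1 or both shallow libraries (up to 0.146). Csf2ra, the alpha chain that pairs with it for GM-CSF, went the other way, with 9.90, 7.29 and 7.03 CPM in knockout 1, 2 and 3 against 15.02, 17.8 and 16.3 CPM in control 1, 2 and 3. It fell (log2 fold change -1.04, edgeR adjusted p = 0.00529), and kept the call in all 15 alternatives. Il6ra, the interleukin-6 receptor, also rose (log2 fold change 0.77, edgeR adjusted p = 0.0139), a call lost without control 1, control 2, knockout 1 or both shallow libraries (up to 0.165). Immune markers (7 genes, 6 of them tested and 0 called by edgeR or limma-voom, though C1qa was by DESeq2 and was the 1 with an unadjusted p under 0.05) summed to 68.8 to 126.7 CPM in knockout and 68.0 to 86.2 CPM in control islets, and their part in these receptor results was not tested. Csf2rb has a close paralog, Csf2rb2, with which reads may be shared and which was not called (log2 fold change 0.35, adjusted p = 0.732).

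Of 15 genes known from the response of islets to prolactin or pregnancy, 4 rose and none fell (median log2 fold change 0.29). Tph1, the rate-limiting enzyme of serotonin synthesis outside the brain, measured 11.6, 7.99 and 6.35 CPM in knockout 1, 2 and 3, against 0, 0.125 and 0.0722 CPM in control 1, 2 and 3. Its neuronal counterpart Tph2, the leucine breakdown enzyme gene Ivd and Ehhadh, an enzyme of peroxisomal fatty acid oxidation, were the others that rose, with log2 fold changes of 1.96, 1.02 and 0.77 (edgeR adjusted p = 0.00175, 0.000581 and 0.0158). The call of Tph2 was lost without both shallow libraries (0.0566), and that of Ehhadh was lost there and without control 1, control 2 or knockout 1 (up to 0.176). Cell-cycle regulators of the list did not pass. Ccnd2, a cyclin of beta-cell division, averaged 262.2 ± 57.9 CPM in knockout and 262.1 ± 29.2 CPM in control islets, and Men1, a brake on beta-cell growth, averaged 58.4 ± 2.48 CPM in knockout and 61.0 ± 6.78 CPM in control islets (SD, n = 3 each).

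Of 13 genes tested that are STAT5 targets in other cells, such as Pim1, Bcl2l1, Bcl6 and Myc, 0 passed by edgeR (median log2 fold change 0.22), DESeq2 or limma-voom, and 1, Bcl2l1, had an unadjusted p under 0.05 (0.31, adjusted p = 0.142). Of 7 cell division genes tested, 0 passed by edgeR (median 0.33), DESeq2 or limma-voom and 0 had an unadjusted p under 0.05, with Mki67 at 1.16, 1.87 and 1.54 CPM in knockout 1, 2 and 3, against 1.69, 0.411 and 0.645 CPM in control 1, 2 and 3. Of the growth hormone axis, Igfals, which encodes the subunit that holds IGF-1 in serum complexes, rose (log2 fold change 0.74, edgeR adjusted p = 0.0233). Leaving out both shallow libraries, control 1, control 2, knockout 1 or knockout 3 ended that call (adjusted p up to 0.238). Igf1 (-0.17, adjusted p = 0.859) and Igf1r (-0.74, adjusted p = 0.173) were not called, though DESeq2 called Igf1r lower. Among the partners of osteoprotegerin, Tnfsf10 (0.80, adjusted p = 0.0741), Traf6 (0.46, adjusted p = 0.0868) and the RANK gene Tnfrsf11a (0.35, adjusted p = 0.558) were not called by edgeR, although Tnfsf10 and Traf6 had an unadjusted p under 0.05 and DESeq2 and limma-voom called Tnfsf10 higher. Tnfsf10 encodes TRAIL, which osteoprotegerin also binds, and the RANK ligand gene Tnfsf11 had at most 4 counts in a library.

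**Figure D5:**
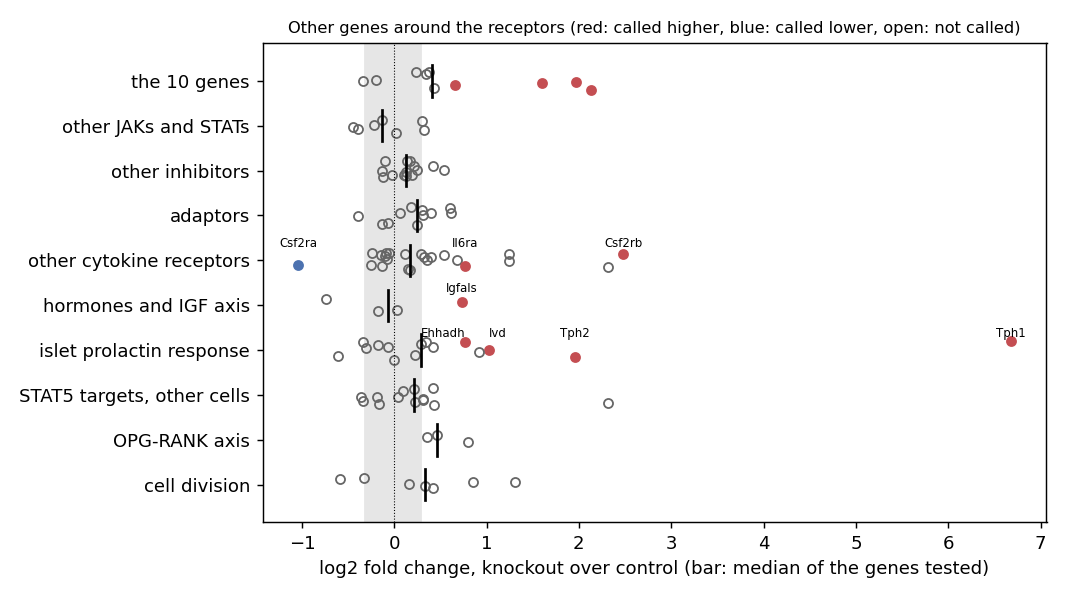
Log2 fold change of knockout over control for every tested gene of each list, with the list's median as a bar and the grey band from -0.31 to 0.29 holding the middle part of all genes. Called genes number 4 among the 10 genes, 4 in the islet prolactin response, 3 among other cytokine receptors and 1 in the hormone and IGF axis, and Tph1 is farthest to the right.

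Among 11036 other genes with a symbol and at least 5 CPM in a group, those closest to Cish over the 6 libraries were Tph2, Gpm6a (a neuronal membrane glycoprotein), Dct (a melanin synthesis enzyme), Pros1 (the anticoagulant protein S) and Wfikkn2. Their root mean square difference of log2 CPM from Cish, after subtracting each gene's control mean, ran from 0.128 to 0.262. Socs2 itself differed from Cish by 0.273. The genes closest to Socs2 were Txnip, the thioredoxin inhibitor, Selenop, a selenium carrier, Sh2d5, the Wnt ligand gene Wnt4 and Adamtsl4, with differences from 0.126 to 0.185. The likeness describes 6 libraries and rests mainly on the step between the groups.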

How the data were processed

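Total RNA of whole islets was sequenced in 6 libraries. The submitters' processing notes name build GRCm39, the aligner STAR 2.7.3a, the counter featureCounts, the trimmer Trim Galore 0.6.7 and FastQC 0.11.9. The authors deposited unnormalized counts per Ensembl gene ID. The sources used here give no strand setting or annotation release. Column names give the group but not the animal, and nothing says whether a library holds 1 animal, so p-values cover only variation from library to library, which may be technical. Symbols matched 52073 of 56980 IDs. In R 4.3.3, edgeR 4.0.16 (filterByExpr, TMM factors, robust quasi-likelihood test) was fitted on all 6 libraries, knockout over control, after a check on simulated counts. In that check, 23.9% of simulated 1.5-fold changes, 70.1% of 2-fold changes and 84.8% of 4-fold changes were called. A gene that was not called may therefore still differ. SE was derived from the quasi-likelihood test. CPM uses TMM-scaled library sizes. Ratios used log2 CPM with a prior count of 2. Lengths and GC content came from GENCODE annotation of GRCm38 by gene ID. The members, lists and tests were chosen with earlier results of these data known. The genes named were the members, Ssbp3, Tph1, Ivd, up to 4 genes of smallest p per list and the 5 genes closest to Cish and to Socs2; others were named as lists or after their values were seen. Alternatives were other scaling, filters, DESeq2 1.42.0, limma-voom (limma 3.58.1), length and GC offsets, and libraries left out. A count floor of 3 and intervals cover counting error or spread between libraries only. A gene of the lists is not reported here.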

Additional observations from a re-analysis of the deposited data

How the results depend on the processing

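All 10 genes kept their direction in the 15 alternatives. Cish and Socs2 were called in each, and Ghr, Jak2, Stat5a, Socs1 and Socs3 in none. Between 3 and 4 of the 10 were called with 1 library left out, and 2 without the shallowest library of each group, where over all genes 124 were called, 76 higher and 48 lower, instead of 1312. With 1 library left out, 519 to 1309 genes were called, 295 to 719 higher and 224 to 590 lower. Without a filter 2153 were called, 1222 of them higher. DESeq2 called 2043, 1077 higher and 966 lower, and length and GC offsets left 369 higher. The cause of these shifts in the number called was not tested. Over 18115 genes with a known length, longer genes tended to have higher log2 fold changes (Spearman rho 0.212). Of 45 other named genes, 4 changed sign, all uncalled: Ghsr with upper-quartile factors (-0.024), offsets (-0.139), and -0.372 to 0.323 with 1 library left out; Cdk1 with limma-voom (0.205), without both shallow libraries (0.434) and -0.936 to 0.265 with 1 left out; Igf1 with 1 left out (-0.667 to 0.081); and Socs7 with offsets (-0.004). Library 1 of each group gave few counts for genes as low as Socs1, with 40 in knockout 1 and 20 in control 1. How much of the spread of Socs1 comes from depth was not tested. No paired analysis was possible because the titles of the groups share only 1 number and the columns do not name the animals.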
